A study of Mus musculus with 6 samples.

Results

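Position 9 is the base of a composite binding site at which an ETS motif meets a cAMP response element (CRE), and the probes described here are those in which that base was replaced. The set holds every substitution at position 9, either alone or with one further substitution at positions 10 to 15, counted from 1 at the 5′ end of the 16-base site. It comprises 3 single and 54 double substitutions, 57 variants in all, and each was carried by 4 probes, which makes 228 probes. In these the site began at base 11 (the middle placement) or at base 21 (the inner placement) of a 60-base probe, in the forward or the reverse orientation. The members were chosen by sequence and placement alone, from 1128 single and double substitutions of the site and from 10812 sequences on the array.

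The study used protein binding microarrays, on which a protein fused to glutathione S-transferase (GST) binds double-stranded DNA probes and the bound tag is read as fluorescence. Mouse DNA-binding domains were translated in vitro, so the arrays report the isolated domains and not the full proteins or nuclear complexes. The first group, GABPa-GST, received the product of 570 ng of tagged GABPα plasmid and is called GABPα alone. The second group, GABPa-GST with CREB1-PT5, received 570 ng of tagged GABPα plasmid translated together with 66 ng of a plasmid for untagged CREB1, so that GABPα was the protein seen, and it is called GABPα with CREB1. The third group, CREB1-GST, received the product of 570 ng of tagged CREB1 plasmid and is called CREB1 alone. Each reaction had a volume of 250 µl and ran for 2 h at 37 °C, and 230 µl went onto the array. Each group had 2 arrays. The labels give one domain type, bZIP, for all 3 groups, although GABPα is an ETS protein. They do not say whether each array had its own protein preparation, and the spread behind every p-value may therefore be technical. Replicate 1 of both GABPα groups lay on a single slide and replicate 2 of both on another, so each comparison with and without CREB1 could be read within a slide.

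GABPα belongs to the ETS family, whose members read a GGAA core through a winged helix-turn-helix domain, and the bases after the core tune the strength of binding. CREB1 is a basic leucine zipper protein that binds as a dimer, each subunit holding a half-site, TGAC or its reverse complement GTCA. The half-sites meet at a central CpG, which takes a base from each. In the composite site the T at position 9 follows the base next to the GGAA core and is also the first base of the first CRE half-site, so a change there touches both motifs. In the CRE, positions 9 to 11 belong to the first arm, positions 12 and 13 are the central CpG, and positions 14 to 16 form the far arm.

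The sequences that the results turn on are printed 5′ to 3′, with capitals marking position 9 and any second substituted base. They are the unmutated site, the 3 single substitutions and doubles that stood highest or lowest, or departed furthest from the sum of their singles, in a group. Beside them are T9C+C12G, whose middle reverse probe fell most on the addition of CREB1, and T9G+G10A, which holds a second GGAA.
unmutated: accggaagTgacgtca
T9A: accggaagAgacgtca
T9C: accggaagCgacgtca
T9G: accggaagGgacgtca
T9C+G10T: accggaagCTacgtca
T9A+G10C: accggaagACacgtca
T9A+C15T: accggaagAgacgtTa
T9G+T14C: accggaagGgacgCca
T9C+G13T: accggaagCgacTtca
T9C+C15A: accggaagCgacgtAa
T9C+C12G: accggaagCgaGgtca
T9G+G10A: accggaagGAacgtca
The next lines show T9C in its forward middle and reverse inner probes, where capitals mark the 16-base site and lower case the constant flanks, which include the priming end.
T9C middle forward: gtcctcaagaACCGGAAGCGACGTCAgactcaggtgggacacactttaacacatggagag
T9C inner reverse: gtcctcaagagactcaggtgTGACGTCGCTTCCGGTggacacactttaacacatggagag
All 57 variants kept a GGAA on one of the strands, against 56.1% of the 1129 versions of the site (the unmutated one and its 1128 variants). T9G+G10A and T9G+C12A held a second GGAA. A CRE half-site (TGAC on the printed strand, or GTCA, its reverse complement) was left in 30 of the 57 variants and in 88.5% of all versions. It was in every case a single copy, whereas the unmutated site holds a pair. These GGAA and half-site counts were fixed by the positions chosen and are not a result about binding.

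The scanner software tests each spot against background, and a sequence had a median of 23 or 24 spots per array. A sequence is called above background here if more than 0.5 of its spots passed that test, and a variant if the mean share over its 4 placements exceeded 0.5 on both arrays. Under this rule 42 of the 57 variants were above background with CREB1 alone, 13 with GABPα alone and 10 with GABPα with CREB1, against 1049, 268 and 363 of all 1128. With CREB1 alone 23 of the 57 were above background in each of the 4 placements, and with either GABPα group 0 were. All 13 and all 10 carried T9C. Signals are log2 intensities scaled by each array's 75th percentile, and an effect is the log2 difference between a variant and the unmutated site within one array and placement, averaged over the 4 placements. The signals of the 228 probes correlated between the 2 arrays at r = 0.993 for CREB1 alone, 0.985 for GABPα alone and 0.987 with CREB1 added.

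The first comparison was between the replaced and the unmutated site. Every substitution at position 9 lowered binding, for CREB1 and for GABPα, and cytosine was the base tolerated best by both proteins. All 57 variants were lower than the unmutated site in each group (limma, adjusted p under 0.05). The share of all 1128 variants called lower was 78.8% with CREB1 alone, 82.6% with GABPα alone and 98.8% with GABPα with CREB1, so the count by itself does not set these variants apart.

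With CREB1 alone all 3 single substitutions lowered the signal, T9C least. The values averaged over the 4 placements are lower limits of the loss, because spots of the unmutated reverse probes were in part saturated, and the values of the forward placements, which had no saturated spot of the unmutated site, are given after them. The effect of T9C was -0.99 and -0.89 on the arrays, with a mean of -0.94 ± 0.06 (SD, n = 2) and a signal 1.92-fold lower than that of the unmutated site (limma, adjusted p = 2.21e-12). T9A gave -1.46 on both arrays, a signal 2.74-fold lower (limma, adjusted p = 1.94e-27). T9G gave -1.64 and -1.51, with a mean of -1.58 ± 0.09 (SD, n = 2), a signal 2.98-fold lower (limma, adjusted p = 9.49e-32). T9C lay above both other bases on both arrays, while T9A and T9G lay close together. T9A minus T9C was -0.52 (SE 0.086, limma adjusted p = 0.00528) and T9C minus T9G was 0.64 (SE 0.080, limma adjusted p = 0.00189), adjusted over the 48 pairs of bases at the 16 positions, of which 35.4% were called higher and 22.9% lower. The difference of 0.12 between T9A and T9G (0.18 and 0.05 on the arrays) passed narrowly (limma, adjusted p = 0.0451). With the replicate number as a block it did not (limma, adjusted p = 0.0604).

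The loss with CREB1 alone depended on the orientation of the site in the probe. The effect of T9A was -2.21 in the forward and -0.71 in the reverse placements, that of T9C -1.44 and -0.44, and that of T9G -2.37 and -0.78. All 57 variants lost more in the forward orientation (limma, adjusted p under 0.05), against 69.8% of all variants. The smallest gap was -0.54, for T9C+G10T, and the widest -1.82, for T9A+A11T. In the reverse orientation the unmutated probes were bright enough that 23.9% and 25.0% of their spots were saturated in the middle placement and 4.44% and 25.5% in the inner placement, on the CREB1 arrays in order of replicate. None were in the forward orientation. A saturated spot gives only a lower limit of its signal. The part of saturation in the difference between orientations was not tested.

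The second comparison asked what a further CRE change costs once position 9 is replaced. With CREB1 alone, replacing the neighbouring G at position 10 moved the signal by at most 0.53 in either direction once the T was gone, while changes at the central CpG and in the far arm all lowered it further. The second substitution lowered the signal in 47 of the 54 doubles and raised it in 4 (limma, adjusted over 2160 second changes, of which 57.2% were lower and 2.36% higher). Among the 39 doubles above background, 32 were lower and 4 higher, against 53.8% and 2.55% of the 2002 second changes with both sites above background.

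All 4 that rose were changes at position 10, the G next to position 9. G10T on T9A added 0.53 and 0.52 on the arrays, a mean of 0.53 (SE 0.038, limma adjusted p = 0.000162). G10T on T9G added 0.51 and 0.42, a mean of 0.46 (SE 0.040, limma adjusted p = 0.000339). G10C on T9A added 0.41 and 0.45, a mean of 0.43 (SE 0.038, limma adjusted p = 0.000365). The fourth was G10T on T9C, which added 0.24 (limma, adjusted p = 0.0163). Of the other 5 position 10 doubles, G10A on T9C and on T9G were lower by small amounts, -0.19 and -0.24, and 3 did not pass. On the site with T at position 9 the same 3 changes were costly: G10A gave -1.34, G10C -1.18 and G10T -0.62. T9C+G10T, which replaces both bases, kept the highest CREB1 signal of all 54 doubles, with an effect of -0.69 and -0.70 on the arrays. It was followed by T9A+G10T (-0.93 on both) and T9C+G10C (-0.99 and -0.90).

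Changes at the A of position 11, the last base of the first arm, lowered the signal in 9 of 9 doubles, by a median of -1.31 with a range from -1.88 to -1.002. Alone, A11C gave -2.45, A11G -1.49 and A11T -1.30. Central CpG changes cost more: position 12 doubles changed by -3.52 to -2.42 and position 13 doubles by -3.79 to -2.68, each lower in 9 of 9. Of these 18 doubles 5 were above background, and 0 were in every placement, so all these sizes are lower limits of the loss. In the far arm, position 14 changes gave -3.41 to -2.29 and position 15 changes -2.64 to -1.03, again lower in 9 of 9 each. Of the position 14 doubles 0 were above background in every placement, and of the position 15 doubles 5 were, so the others are limits too.

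The changes of largest size with both sites above background were T14G on T9C (-3.51 and -2.92 on the arrays, mean -3.22), T14C on T9A (-3.16 and -2.65, mean -2.90) and G13A on T9A (-3.18 and -2.47, mean -2.82). Each passed the test (limma, adjusted p = 3.19e-05, 3.06e-05 and 8.29e-05). None of the 3 doubles was above background in every placement, so these sizes are lower limits and their order is not measured. The contrast with the intact site was plain at position 15, the next-to-last base of the CRE. C15A gave -0.36 alone but -1.03 on T9C, -1.29 on T9A and -1.37 on T9G. C15T gave -0.91 alone and -2.30 on T9C, -2.64 on T9A and -2.57 on T9G. The lowest doubles above background were T9G+T14C (-4.71 and -4.09 on the arrays), T9A+T14C (-4.62 and -4.10) and T9A+G13A (-4.64 and -3.92). Placements of these below background were present, and with the floor in their place the losses were at least 19.1-fold, 18.5-fold and 18.2-fold.

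The departure of a double from the sum of its singles, on the log2 scale, puts these patterns in one number, and its sign mostly followed the arm. Most doubles within the first arm lay above the sum and doubles reaching the far arm lay below it. With CREB1 alone, 16 of the 18 doubles at positions 10 and 11 were higher than the sum and 0 lower, with a median of 0.79 and a range from -0.08 to 1.61. At the central CpG, 13 of 18 were lower and 0 higher, with a median of -0.93. In the far arm 18 of 18 were lower, with a median of -1.39 and a range from -1.73 to -0.67. Over all 1080 doubles 7.04% were called higher and 24.2% lower. Among the 39 above background together with both singles, 16 were higher and 21 lower, against 6.69% and 21% of 1001 such doubles. With the middle placements alone 9 were higher.

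The highest departures were those of T9A+G10C (1.69 and 1.53 on the arrays, mean 1.61, SE 0.075), T9A+G10A (1.39 and 1.27, mean 1.33, SE 0.075) and T9G+G10C (1.36 and 1.15, mean 1.25, SE 0.082). The lowest above background were T9A+C15T (-1.90 and -1.56, mean -1.73, SE 0.085), T9G+C15T (-1.85 and -1.47, mean -1.66, SE 0.089) and T9A+T14C (-1.72 and -1.48, mean -1.60, SE 0.080). The limma adjusted p of these 6 ran from 4.59e-09 to 2.08e-08. In the highest 3 the G10 change altered the signal of T9A or T9G by 0.43, -0.01 and 0.07, and in the lowest 3 the far-arm change altered it by -2.64, -2.57 and -2.90.

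Background and saturation could each set part of such a departure, so the counts were also taken where they bear less. Of the 20 doubles above background in every placement together with both singles, 14 were higher and 5 lower, against 6.57% and 9.92% of the 837 such doubles of the whole site. All 15 first-arm doubles among the 20 except T9A+A11T were higher, and all 5 far-arm ones were lower. With every dim placement set to the floor, the 18 far-arm departures all stayed below 0. In the forward placements, where no spot of the unmutated site was saturated, 18 of 18 first-arm doubles were higher and 18 of 18 far-arm doubles lower, while the central CpG gave 6 higher and 7 lower. In the reverse placements the counts were 10 higher and 2 lower for the first arm, 18 lower for the far arm and 18 lower for the central CpG. Of those 10, all but T9C+A11C changed position 10, and the 2 lower were T9A+A11T (-0.31) and T9G+A11T (-0.48). The far-arm and central CpG counts of both orientations include doubles that were not above background. No share of all doubles is given for the fits of a single orientation, so these counts are not set against the whole site. All 6 forward calls above the sum at the central CpG were doubles with C12A or G13T. Those singles, at -3.49 and -3.44, were not above background in every placement, and no central CpG double was. The direction at the central CpG is therefore not measured, while the far arm was called lower in both orientations.

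With GABPα alone, C was the only replacement at position 9 that left a signal above background over the 4 placements. T9C gave -1.68 and -1.86 on the arrays, a mean of -1.77 ± 0.13 (SD, n = 2), and was above background in 3 of the 4 placements. On the scale of the processed intensity, with the dim placement at the floor, this is a loss of at least 2.62-fold (limma, adjusted p = 1.39e-39). T9A read -3.41 and -3.71 and T9G -3.71 and -3.98, and both were not well above background in any placement, so the losses on that scale were at least 4.64-fold for both (limma, adjusted p = 1.90e-144 and 3.42e-166). These p-values rest on a spread that the fit shared across all 1128 variants, with a standard error of 0.13 for each effect.

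T9C was called above both other bases: T9C minus T9G was 2.08 (SE 0.080, limma adjusted p = 5.55e-05) and T9A minus T9C -1.79 (SE 0.086, limma adjusted p = 0.000119). Since T9A and T9G were below background, these sizes are differences from a dim signal and not measured ratios. In this comparison 20.8% of the 48 pairs were called higher and 16.7% lower. T9A read 0.29 above T9G (0.30 and 0.28 on the arrays, limma adjusted p = 0.00333), but both were below background, so their order is not measured. In percentages of the unmutated intensity computed from the authors' deposited table, T9C kept 55.3% and 43.4%, T9A 28.4% and 16.9% and T9G 22.0% and 14.2% on the arrays. The authors' deposited table subtracts the local background alone, and its percentages are means of linear ratios over the placements. They can stand for smaller or larger losses than the bounds on the processed intensity, so the scales are not interchangeable. The 9 single substitutions of core positions 4 to 6 kept a median of 6.70% and 3.26% in the authors' deposited table, with highest values of 15.3% and 8.98%, so all 3 position 9 substitutions lay above the broken core there.

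T9C was itself uneven over the placements. With GABPα alone its effect was -0.97 in the middle forward, -1.44 in the middle reverse, -1.58 in the inner forward and -3.07 in the inner reverse placement, the last not well above background. The forward minus reverse difference was 0.98 (limma, adjusted p = 7.82e-32), a size that includes the dim inner reverse probe. Of the 57 variants 24 were higher in the forward orientation and 12 lower, against 5.23% and 76.8% of all variants, and with CREB1 added 16 were higher and 9 lower, against 8.6% and 69.7%. Most of these were below background in both orientations.

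The next values are those of a second CRE change on T9C with GABPα alone, the only base on which it could be measured. All 19 variants with T9C were above background in both middle placements, where the losses ran from -1.54 to -0.80 with a median of -1.11. In those placements the second change was called lower in 2 of the 18 doubles and higher in 1, against 18.1% and 1.54% of 519 in the whole site, so the share of calls was near that of the site as a whole. Over the 4 placements, the second change was lower in 9 and higher in 3 of all 54 doubles (38.4% and 1.94% of the background), and 12 T9C doubles were above background. Of these, 0 were lower than T9C at an adjusted p under 0.05 and 2 were higher, against 15.6% and 3.9% of 487 second changes in the whole site. G13T added 0.68 on both arrays (SE 0.15, limma adjusted p = 0.0209) and C15A added 0.34 and 0.28, a mean of 0.31 (SE 0.049, limma adjusted p = 0.00588). G13T alone on the unmutated site also stood slightly higher, at 0.27 (limma, adjusted p = 0.0486). Both calls at T9C depended on the array and setting: leaving out single arrays gave 0 to 5 higher calls.

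The T9C doubles that stood highest with GABPα alone were T9C+G13T (-0.999 and -1.17 on the arrays), T9C+C12T (-1.29 and -1.52) and T9C+C15T (-1.28 and -1.54). The lowest above background were T9C+T14A (-1.67 and -1.96), T9C+C12A (-1.66 and -1.92) and T9C+A11C (-1.71 and -1.83). The lowest of these differed from T9C alone by -0.05, with no call. Next to position 9, G10A (-0.51), G10C (-0.44) and A11T (-0.28) lowered T9C past the threshold with the double below the background rule. In the middle placements, where all were above it, G10A gave -0.34 (limma, adjusted p = 0.00566) and G10C -0.25 (limma, adjusted p = 0.0146).

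Among the 12 doubles above background, 2 lay above the sum of their singles and 0 below it: T9C+G13T by 0.41 (SE 0.083, limma adjusted p = 0.000994) and T9C+C12T by 0.29 (SE 0.082, limma adjusted p = 0.0113). The shares of 243 such doubles of the whole site were 3.7% and 2.06%. Over all 54 doubles 6 were higher and 4 lower, where 33.1% and 3.33% of the 1080 were. In the middle placements alone 0 of the 12 were called higher.

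The third comparison added untagged CREB1 to tagged GABPα. Among the 9 variants above background over the 4 placements in both groups, all with T9C, 8 lost more with CREB1 than with GABPα alone. The exception was T9C itself. None of the 9 was above background in every placement in either group, so dim placements enter these differences. Of all 1128 variants 81.6% were called lower in this test. With CREB1 present the effect of T9C was -1.999 and -1.97 on the arrays, a mean of -1.99 ± 0.02 (SD, n = 2) and a loss of at least 3.89-fold on the processed intensity with dim placements at the floor. T9A read -4.15 and -3.80 and T9G -3.68 and -3.34, both not above background over the 4 placements, with losses of at least 7.74-fold and 6.51-fold on that scale. In percentages of the unmutated intensity from the authors' deposited table, T9C kept 37.1% and 34.5%, T9A 15.6% and 13.4% and T9G 20.3% and 16.6%. T9C was again called the brightest base, against dim signals of the other two, with T9A minus T9C at -1.99 (limma, adjusted p = 3.11e-05) and T9C minus T9G at 1.53 (limma, adjusted p = 6.74e-05), where 39.6% of pairs were called higher and 29.2% lower.

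T9A and T9G exchanged places in the fitted values, but mostly in signals below background, so the order is a reading of dim probes. With CREB1, T9A was 0.46 below T9G (-0.47 and -0.46 on the arrays, limma adjusted p = 0.000363), against 0.29 above it with GABPα alone. The change in the difference was -0.75 (SE 0.032, limma adjusted p = 0.000191). In the middle placements T9G with CREB1 was well above background on both arrays in the reverse and on 1 array in the forward orientation. There T9A minus T9G was -0.65 with CREB1, past the threshold, with T9A below background. In the forward placements taken alone it was -0.14 with CREB1 (limma, adjusted p = 0.150). In the outer reverse placement, which is not part of the average and where all were above background, T9A lay above T9G in both groups, at -1.67 against -2.16 with GABPα alone and -2.77 against -3.26 with CREB1.

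Second changes on position 9 variants lowered the GABPα signal in the presence of CREB1 in 46 of 54 doubles and raised it in 0, where 68.7% of 2160 were lower and 0.741% higher. Most of these lay below background. Of the 9 T9C doubles above it, 6 were lower than T9C and 0 higher, against 79.4% and 2.26% of 664 such second changes. Without replicate 1 of GABPα with CREB1 1 of them was lower. In the middle placements 14 of the 18 T9C doubles were lower and 0 higher, against 76.5% and 1.23% of 731. The largest drops above background were those of C15G (-0.75 and -0.62 on the arrays, mean -0.69), G13A (-0.70 and -0.60, mean -0.65) and C15T (-0.59 on both), with limma adjusted p of 0.00175, 0.00658 and 0.00978. On T9C, C15A changed the signal by -0.02, G10T by -0.05 and G13T by -0.42, none past the threshold (limma, adjusted p = 0.791, 0.490 and 0.0603).

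The brightest T9C doubles with CREB1 were T9C+C15A (-2.04 and -1.97 on the arrays), T9C+G10T (-2.08 and -1.997) and T9C+G10A (-2.34 and -2.16). The dimmest above background were T9C+C15G (-2.75 and -2.60), T9C+G13A (-2.70 and -2.57) and T9C+C15T (-2.58 and -2.56). All 6 lay at or below T9C itself in the mean. Against the sum of the singles, T9C+G10A stood 0.68 higher (SE 0.078), T9C+G10T 0.48 (SE 0.076) and T9C+G13T 0.33 (SE 0.083), while T9C+C15G departed by -0.47 (SE 0.075), T9C+C15T by -0.42 (SE 0.086) and T9C+G13A by -0.22 (SE 0.081). Their limma adjusted p ran from 2.63e-06 to 0.0234. In all, 4 of the 9 doubles were higher and 3 lower, where 20.2% and 26.8% of 332 such doubles were. Over all 54 doubles 12 were higher and 27 lower, where 52.2% and 25.4% of the 1080 were. In the middle placements 1 of the doubles above background was lower. As with CREB1 alone, the changes at position 10 named here fell above the sum and C15G and C15T below it.

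Across the 18 T9C doubles, the effect with CREB1 alone correlated with the effect on GABPα with CREB1 at r = 0.480 (Spearman's rho 0.432) and with that on GABPα alone at r = -0.465 (rho -0.360). In the middle placements, where the doubles could be measured best with GABPα, these were 0.683 (rho 0.659) and -0.476 (rho -0.410). The 18 points share the T9C base and the probe flanks, so these values describe the set and are given without a test.

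Tested directly, the effect with CREB1 minus the effect with GABPα alone was lower in 54 of the 57 variants and higher in 1 (limma, adjusted p under 0.05), where 81.6% of all 1128 variants were lower and 11.9% higher. For 43 of the 57 the variant was below background in both groups, and the difference then includes the rise of the unmutated site. Its scaled signal was 0.48 to 0.74 higher with CREB1 in the 4 placements, a rise whose size depends on the scaling between arrays. All 38 variants with T9A or T9G were among the 43. Of the 9 T9C variants above background in both groups, 8 were lower, with none of the 9 above background in every placement. Leaving dim variants out of the fit removed those 43, and 11 of the variants that remained were lower. Fitted on the authors' deposited table, none, that is 0 of the 57, passed. With the same 43 left out of that fit, 12 of the remaining variants were lower.

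The largest differences were those of T9C+G13T (-1.37 within slide 1 and -1.27 within slide 2, mean -1.32), T9C+C12G (-1.46 and -1.13, mean -1.29) and T9C+C12A (-1.43 and -1.16, mean -1.29), each with a standard error of 0.15 and limma adjusted p of 2.56e-16, 1.16e-15 and 1.19e-15. All 3 change the central CpG of the CRE, and T9C+C12A was below background with CREB1 and T9C+C12G in both groups, over the 4 placements. For the singles, T9C differed by -0.32 and -0.12 on the slides (mean -0.22, limma adjusted p = 0.160), and by -0.45 in the middle placements (limma, adjusted p = 0.0367). The T9C difference was also past the threshold at -0.59 in the forward placements, -1.02 over all 6 placements and -0.40 with normexp (limma, adjusted p = 7.53e-06, 3.02e-20 and 0.0283), and it was 0.15 in the reverse placements (limma, adjusted p = 0.467). The value over all 6 placements includes the outer forward one, where GABPα alone was at background even on the unmutated site. The T9C difference therefore depended on the placement and the background correction.

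T9A and T9G lay below background in both groups over the 4 placements, and the slides gave unequal values for them. T9A differed by -0.74 and -0.10 (mean -0.42, limma adjusted p = 0.00717). Its call was lost in the reverse placements (-0.37, limma adjusted p = 0.0586), in the middle placements (-0.07, limma adjusted p = 0.748) and with an intensity trend (limma, adjusted p = 0.152). Fitted on the authors' deposited table T9A gave -0.59 (limma, adjusted p = 0.305). Without replicate 1 of GABPα alone it was -0.27 (limma, adjusted p = 0.239), and without replicate 1 of GABPα with CREB1 -0.25 (limma, adjusted p = 0.102).

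T9G differed by 0.03 and 0.64 (mean 0.33, limma adjusted p = 0.0330). Over all 6 placements the direction turned, to -0.64 (limma, adjusted p = 7.95e-09). These include the outer forward placement, where GABPα alone was at background even on the unmutated site, so it could show no loss. The T9G effect there was -0.11 with GABPα alone and -4.15 with CREB1. The call was lost with the replicate number as a block (limma, adjusted p = 0.111), with normexp (0.18, limma adjusted p = 0.347), in the forward placements (0.07, limma adjusted p = 0.607), with an intensity trend (limma, adjusted p = 0.264) and with all 6 arrays in the fit (limma, adjusted p = 0.0806). Fitted on the authors' deposited table T9G gave 0.02 (limma, adjusted p = 0.952). Without replicate 2 of GABPα alone it was 0.20 (limma, adjusted p = 0.391), and without replicate 2 of GABPα with CREB1 0.16 (limma, adjusted p = 0.277). In the middle placements the T9G difference was larger, at 1.17 (limma, adjusted p = 1.80e-07). With CREB1 the T9G probes were there in part above background, and with GABPα alone they were not. No direction is drawn for T9G from these values.

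Probe by probe, 10 of the 228 probes were lower and 2 higher on the addition of CREB1 (limma, adjusted over 10812 sequences, of which 3.58% were lower and 6.73% higher). Of the 228, 37 were above background on all 4 arrays, every one with T9C, and 177 on none. Among the 37, 6 were lower and 0 higher. No share was taken over all sequences above background on the 4 arrays, so this count is not set against the rest of the array. The highest change was that of T9G in the middle reverse probe, from -4.26 and -4.42 with GABPα alone to -2.11 and -2.10 with CREB1. The probe was not well above background with GABPα alone, and with the floor in its place the signal was at least 1.65-fold higher with CREB1 (limma, adjusted p = 0.00417). T9C+G10A in the inner reverse probe was called higher with signals below background in both groups, so it has no fold.

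The largest fall was that of T9C+C12G in the middle reverse probe, from -1.40 and -1.60 to -2.53 and -2.64 (limma, adjusted p = 0.0234), where 1 of the arrays with CREB1 was above background. T9C+G13T in the same placement fell from -1.01 and -1.12 to -1.84 and -2.02 (limma, adjusted p = 0.0308), and T9A+C15T there was called lower with signals below background throughout. The number of lower calls depended on the processing. It was 199 when arrays were scaled by all their spots, 137 when the fit held only the custom sequences, 2 with quantile scaling and 0 without scaling. With the replicate number as a block 1 probe was lower and 2 were higher.

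The last comparison set position 9 beside its neighbours, as the mean effect of the 3 singles at each position, adjusted over 120 pairs of positions. With CREB1 alone position 9 averaged -1.32, a deeper loss than at position 8, the last ETS-side base (-0.33, difference -0.998, limma adjusted p = 1.64e-05). It was also deeper than at position 10 (-1.05, difference -0.28, limma adjusted p = 0.0137) and at position 16 (-0.73, difference -0.60, limma adjusted p = 0.000549), which mirrors position 9 in the palindrome. In this group 60% of pairs were called higher and 20.8% lower. The lead over position 16 was absent in the reverse placements, where the difference was 0.10 (limma, adjusted p = 0.224), and that over position 10 was -0.05 there (limma, adjusted p = 0.531).

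With GABPα alone position 9 averaged -3.06 against -0.10 at position 10 and 0.02 at position 16, so the step from large to small effects lay between positions 9 and 10. The differences were -2.95 and -3.07 (limma, adjusted p = 2.67e-07 for both), where 65.8% of pairs were lower and 15.8% higher. Position 8 averaged -3.00 (difference -0.06, limma adjusted p = 0.381), but with G8C and G8T, T9A and T9G all below background this order is not measured. In the authors' deposited table position 9 was 0.60 above position 8, and in the middle placements 0.28 above it. With CREB1 present position 9 averaged -3.16, position 8 -2.42, position 10 -0.87 and position 16 -0.25. Position 9 read the lowest of the 4 (limma, adjusted p = 3.31e-05, 5.74e-07 and 2.66e-07), where 73.3% of pairs were lower and 18.3% higher. T9A, T9G and G8T were below background in this group too, so the order of positions 9 and 8 is not measured. The fitted difference of position 9 from position 8 was -0.73, and -0.17 in the authors' deposited table (limma, adjusted p = 0.124).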

How the data were processed

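Each array held 179966 spots and was read in a single channel. Per the file headers, the authors' scanner files were made with Agilent Feature Extraction 12.0.1.1, and the deposited processed intensity has a fitted background subtracted, with a surrogate value where a spot was not significant, so values below background are limits and not levels. A spot was well above background at 13 SD by the software's own test. Spots flagged as outliers (2.26% to 4.55% per array) were left out, the log2 intensities of the remaining spots of a sequence were averaged, and each array was scaled to its 75th percentile, taken over those 1143 sequences that passed the background rule on each of the 6 arrays. The authors' deposited table of intensities per probe name was recomputed from the scanner files as the median over spots of foreground minus local background, and all 6891 entries of each column agreed within 0.01. Its column medians were 325.25, 338.5, 317.25, 241.75, 16931.8 and 17398, and its values served as an alternative.

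Tests used limma 3.58.1 in R 4.3.3 (data.table package, version 1.17.8), on a mean per group, two-sided, with Benjamini-Hochberg adjustment over the whole table of each comparison at 0.05. The code was tested on simulated data. The number of arrays, 2 per group, limits the precision, and an exact permutation test of 2 against 2 cannot go below 0.333. A loss of a variant below background in some placement is given as a bound, with the lowest signal of any sequence above background on that array in its place. In the second change and base pair comparisons the standard error of an item is common to the groups.

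Same-numbered arrays of the GABPα groups shared a slide. Their deviations correlated at r = -0.061 over the 1143 sequences above background and 0.373 over all 10812, and a replicate block was run as an alternative. The variants and lists were chosen with earlier results of these data known. Named in the text are the 3 singles, and in each group the 3 highest and 3 lowest doubles above background, the 3 largest departures and second changes in each direction, and the 3 largest differences and changes on addition of CREB1. Singles at other positions, the C15 doubles and the calls at position 10 were named beside them after their values were seen. The alternatives were the background correction (normexp, offset 50), median over spots, outlier spots kept, the authors' table, dim variants left out, other placements, scaling, an intensity trend, all arrays in a fit and leaving out each array. The middle placements alone were added after seeing the data for most comparisons.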

Additional observations from a re-analysis of the deposited data

Results flagged for a closer look

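The effect of position 9 variants differed between GABPα with and without CREB1 by the test of the difference itself. Of the 57 variants, 54 were called lower with CREB1 than with GABPα alone, where 81.6% of all variants were. Of the 57, 43 were below background in both groups, and their difference includes the rise of the unmutated site. With those 43 left out of the fit, 11 of the variants that remained were called lower. Of all 57, 0 were called lower when the fit used the authors' deposited table.

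T9G was the variant called higher, with a difference of 0.33 in its effect, from signals below background in both groups over the 4 placements. It was 0.03 on slide 1 and 0.64 on slide 2, and 1.17 in the middle placements. Over all 6 placements it was -0.64, with the outer forward one at background with GABPα alone even on the unmutated site.

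The fitted difference between T9A and T9G also changed with CREB1, by -0.75. Both were below background in every averaged placement with GABPα alone, so the change is not a measured one.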

How the results depend on the processing

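Of the values recomputed for the counts, base pairs and position pairs, 578 kept their direction and side of the threshold (counts within 1.5 times) and 105 did not. For the single variants named, 540 did, 14 lost the call, 4 gained it and 2 reversed. The order of T9C above T9A and T9G held under each alternative run. The counts of losses in each group and of orientation differences with CREB1 alone stayed within 1.5 times of 57. Leaving out any single array kept them at 57. The runs without dim variants did not test all 57. Signals below background limit all GABPα values for T9A and T9G.

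The T9A minus T9G difference with CREB1 alone was 0.083 with normexp, 0.10 with the median over spots, 0.090 from the authors' table (also with dim variants left out), 0.12 with the replicate block, 0.16 in forward, 0.075 in reverse and 0.11 in middle placements, past the threshold in none of these, and 0.054 to 0.18 leaving out single arrays. With GABPα and CREB1 it was -0.14 in forward placements. Position 9 minus 8 for GABPα alone turned to 0.54 with normexp, 0.60 from the authors' table (with or without dim variants), 0.24 over all 6, 0.17 in forward and 0.28 in middle placements, and was -0.28 in reverse, there past the threshold; with CREB1 it was -0.17 from the authors' table. Position 9 minus 10 for CREB1 alone was -0.25 from the authors' table, -0.050 in reverse placements and -0.32 to -0.24 leaving out single arrays. Position 9 minus 16 turned to 0.10 in reverse placements. The difference with CREB1 turned to -0.64 for T9G over all 6 placements. Of these the outer forward one was at background with GABPα alone. For T9C the difference turned to 0.15 in reverse placements.

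For the addition of CREB1, member probes lower and higher numbered 0 and 0 with normexp and from the authors' table, 16 and 4 with dim sequences left out (6 and 1 in the authors' table), 69 and 4 with an intensity trend, 199 and 1 with the percentile over all spots, 0 and 1 without scaling, 137 and 18 with custom sequences alone, and 3 and 5 with all 6 arrays. There were 6 lower with the median over spots, 2 with quantile scaling and 1 with the replicate block, and 4 higher with outlier spots kept. Leaving out single arrays gave 0 lower and 0 to 2 higher.

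Members lower in the difference with CREB1 numbered 0 from the authors' table, 12 there and 11 otherwise with dim variants left out. In the runs without dim variants, those below background in both GABPα groups, T9G among them, were not tested. Those higher numbered 0 with normexp, the authors' table, dim variants left out, the replicate block, the intensity trend, all 6 or forward placements and all 6 arrays, and 0 to 1 leaving out single arrays. Departures for GABPα alone above the sum numbered 0 with normexp, the authors' table, forward and middle placements, 7 with the median over spots, 4 with the intensity trend and 9 in reverse placements, and 2 lay below it in forward placements. With CREB1, those below numbered 0 with normexp and the authors' table and 1 over all 6 and in middle placements. For CREB1 alone those above numbered 10 in reverse and 9 in middle placements. Second changes for GABPα alone called higher numbered 1 with normexp, 4 with the median over spots and the intensity trend, 0 from the authors' table and in forward placements (1 lower there), 7 in reverse and 1 in middle placements, and 0 to 5 leaving out single arrays. With CREB1, lower calls numbered 3 from the authors' table and 1 to 7 leaving out single arrays. The replicate block ended the calls of T9A minus T9G with CREB1 alone and of the T9G difference, moved the counts given here and changed no other call. The causes were not tested.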

Other observations

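The outer reverse placement of the same sites, which was not averaged with the others, gave the single substitutions of position 9 a measurable GABPα signal, and the outer forward placement did not. In the outer reverse placement all 3 were above background on both arrays of both GABPα groups. With GABPα alone the effects were -0.84 for T9C, -1.67 for T9A and -2.16 for T9G. With CREB1 they were -1.94, -2.77 and -3.26. T9C was again the highest, and T9A lay above T9G in both groups there, unlike the fitted order in the middle placements with CREB1. With CREB1 alone the same placement gave -2.19, -2.71 and -3.47, with T9G above background on 1 array.

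In the outer forward placement GABPα alone was at background even on the unmutated site, at log2 signals of -4.41 and -4.72. With CREB1 added the unmutated site read -0.64 and -0.74, above background on both arrays. The T9A, T9C and T9G probes stayed below background there with CREB1, at effects of -4.19, -4.21 and -4.15. CREB1 alone bound these probes above background, with effects of -1.04 for T9C, -1.64 for T9A and -1.95 for T9G. These values are a description of 1 placement each and were not tested.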
